A study of Mus musculus with 63 samples.

Results

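The genes described here are the 7 nicotinic acetylcholine receptor subunits Chrna3, Chrna4, Chrna5, Chrna7, Chrnb2, Chrnb3 and Chrnb4. They were taken by symbol from the gene count table of mouse dorsal hippocampus, after its Ensembl identifiers were matched to GENCODE M21, and make up 7 of the 55401 genes in that table. The rule of choice used no measured value, but it was made with earlier results of these data known. All 7 passed the filter on low counts that left 19974 genes for testing, but at very different depths: the median count per library was 1509 for Chrnb2, 501 for Chrna7, 453 for Chrna4 and 125 for Chrna5, against 9 for Chrna3, 9 for Chrnb3 and 7 for Chrnb4.

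The tissue came from adolescent mice, male and female, of 2 inbred strains (C57BL/6J or DBA/2J), injected with saline or with ethanol at 1.5 g/kg and either exposed to fear conditioning (FC) or kept as controls without it (noFC). Strain, sex, drug and conditioning make 16 groups, each with 4 libraries except male C57BL/6J FC saline with 3, so 31 C57BL/6J and 32 DBA/2J libraries were compared. No allele or transgene is named in the labels, and every mouse in both drug groups received an injection. Library totals ran from 21027659 to 61631742 gene counts with a median of 26379948. The labels do not say that each library is a separate animal, so p-values measure the spread between these libraries. The dissection label was checked against its markers: levels in CPM, the gene count divided by the scaled library total and multiplied by a constant, summed over the CA1 markers to 480 to 734 in every library. Choroid plexus markers, which belong to another tissue, ran from 35.5 to 12600 CPM.

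Nicotinic receptors are pentameric cation channels opened by acetylcholine and by nicotine. In the brain, alpha 4 and beta 2 subunits form the common high-affinity heteromeric receptor, alpha 7 forms a homomeric receptor with high calcium permeability, and alpha 3 with beta 4 forms receptors best known from autonomic ganglia and the medial habenula. The alpha 5 and beta 3 subunits are accessory: they join receptors built on other alpha and beta subunits and change their conductance and calcium permeability. In hippocampus the receptors lie on interneurons, pyramidal cells and the endings of incoming axons, and take part in attention and memory. Chrna5, Chrna3 and Chrnb4 are neighbours in one gene cluster, which in humans is known for association with smoking.

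The 7 genes lie at 5 places in the genome (build GRCm38, all protein coding). Chrna5 (ENSMUSG00000035594, chromosome 9, 54980880 to 55007779, plus strand) is followed after 2331 bases by Chrna3 (ENSMUSG00000032303, 55010111 to 55026562, minus strand), and after a further 1591 bases by Chrnb4 (ENSMUSG00000035200, 55028154 to 55048779, minus strand). Chrna7 (ENSMUSG00000030525) lies on chromosome 7 from 63098692 to 63212569, minus strand. Chrna4 (ENSMUSG00000027577) lies on chromosome 2 from 181018380 to 181043546, minus strand. Chrnb2 (ENSMUSG00000027950) lies on chromosome 3 from 89746195 to 89764632, minus strand, and Chrnb3 (ENSMUSG00000031492) on chromosome 8 from 27368711 to 27399730, plus strand. Chrnb2 shares 1365 of its 8380 exon bases with Adar, which runs on the opposite strand. The library kit keeps the strand, but the strand setting of the counting is not given in the sources used here, so reads of Adar in the Chrnb2 count cannot be told apart.

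The sequences upstream of Chrna5, Chrna3 and Chrna7 are shown because these are the 3 members whose level differed between the strains. They come from the RefSeq promoter table (GRCm38.p6), which held an entry for 6 of the 7 members and 2 for Chrna5, whose annotated starts lie 608 bases apart. Each line runs 5′ to 3′ on the gene's strand up to its start or, where annotated exons of the gene reach into the window of 250 bases, covers the longest stretch outside them. Capitals mark GGGCGG or its reverse complement CCGCCC, the GC box motif. The strand and position are plus, chr9:54980630-54980879 and chr9:54981248-54981465 for the first and second Chrna5 start, minus, chr9:55026563-55026812 for Chrna3, and minus, chr7:63212570-63212776 for Chrna7.
Chrna5 first start: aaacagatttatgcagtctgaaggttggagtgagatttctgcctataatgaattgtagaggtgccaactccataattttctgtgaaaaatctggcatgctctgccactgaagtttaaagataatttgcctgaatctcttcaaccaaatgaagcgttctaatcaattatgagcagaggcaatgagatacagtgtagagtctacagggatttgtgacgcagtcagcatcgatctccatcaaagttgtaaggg
Chrna5 second start: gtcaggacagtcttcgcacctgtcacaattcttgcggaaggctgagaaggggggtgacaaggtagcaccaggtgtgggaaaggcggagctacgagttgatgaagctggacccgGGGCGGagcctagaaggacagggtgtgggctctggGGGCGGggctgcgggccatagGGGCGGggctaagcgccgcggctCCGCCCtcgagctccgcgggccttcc
Chrna3: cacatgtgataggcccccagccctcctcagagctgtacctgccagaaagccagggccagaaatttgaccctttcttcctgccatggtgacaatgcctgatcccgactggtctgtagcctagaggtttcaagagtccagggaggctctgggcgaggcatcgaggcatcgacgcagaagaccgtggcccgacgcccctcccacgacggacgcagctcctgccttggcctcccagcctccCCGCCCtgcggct
Chrna7: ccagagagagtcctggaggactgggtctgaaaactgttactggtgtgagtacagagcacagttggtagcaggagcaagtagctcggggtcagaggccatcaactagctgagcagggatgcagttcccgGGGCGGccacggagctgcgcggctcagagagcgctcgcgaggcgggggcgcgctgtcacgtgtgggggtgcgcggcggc

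The Chrna5 starts differ in composition. The window of the first start held 3 CpG dinucleotides and no GC box letters, and that of the second held 17 CpG and 4 matches. The Chrna3 window held 13 CpG and 1 match, and the Chrna7 window 25 CpG and 1 match. Over all 32851 windows of the table the median was 6 CpG, and 32.7% held GGGCGG or CCGCCC on either strand. The letters TATAAA or TTTATA were in none of the 7 windows of the members and in 12.4% of all windows. These are matches of letters in the reference sequence, and the DBA/2J sequence was not used here.

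Per length, Chrnb2 was the most abundant member and the order fell into a high and a low tier. CPM per kilobase of merged exon (RPKM) averaged 6.68 ± 0.454 (SD, n = 63) for Chrnb2, 4.18 ± 0.582 for Chrna7, 3.4 ± 0.752 for Chrna4 and 1.56 ± 0.545 for Chrna5. Chrnb4 (0.119 ± 0.123), Chrna3 (0.0678 ± 0.0344) and Chrnb3 (0.0571 ± 0.0313) formed the low tier. Chrnb2 was above Chrna7, Chrna4 above Chrna5, and Chrna5 above Chrnb4 in 63 of 63 libraries. Chrna7 was above Chrna4 in 50 of 63, and the 3 rare subunits could not be ordered: Chrnb4 was above Chrna3 in 38 of 63 libraries and Chrna3 above Chrnb3 in 39. The deposited transcript estimates, turned into TPM, which divides by transcript length and rescales to a fixed total, put Chrnb2 (17.7 ± 1.37) and Chrna7 (17.2 ± 2.33) within one SD of each other and placed Chrnb3 (0.193) above Chrna3 (0.0624).

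**Figure D1:**
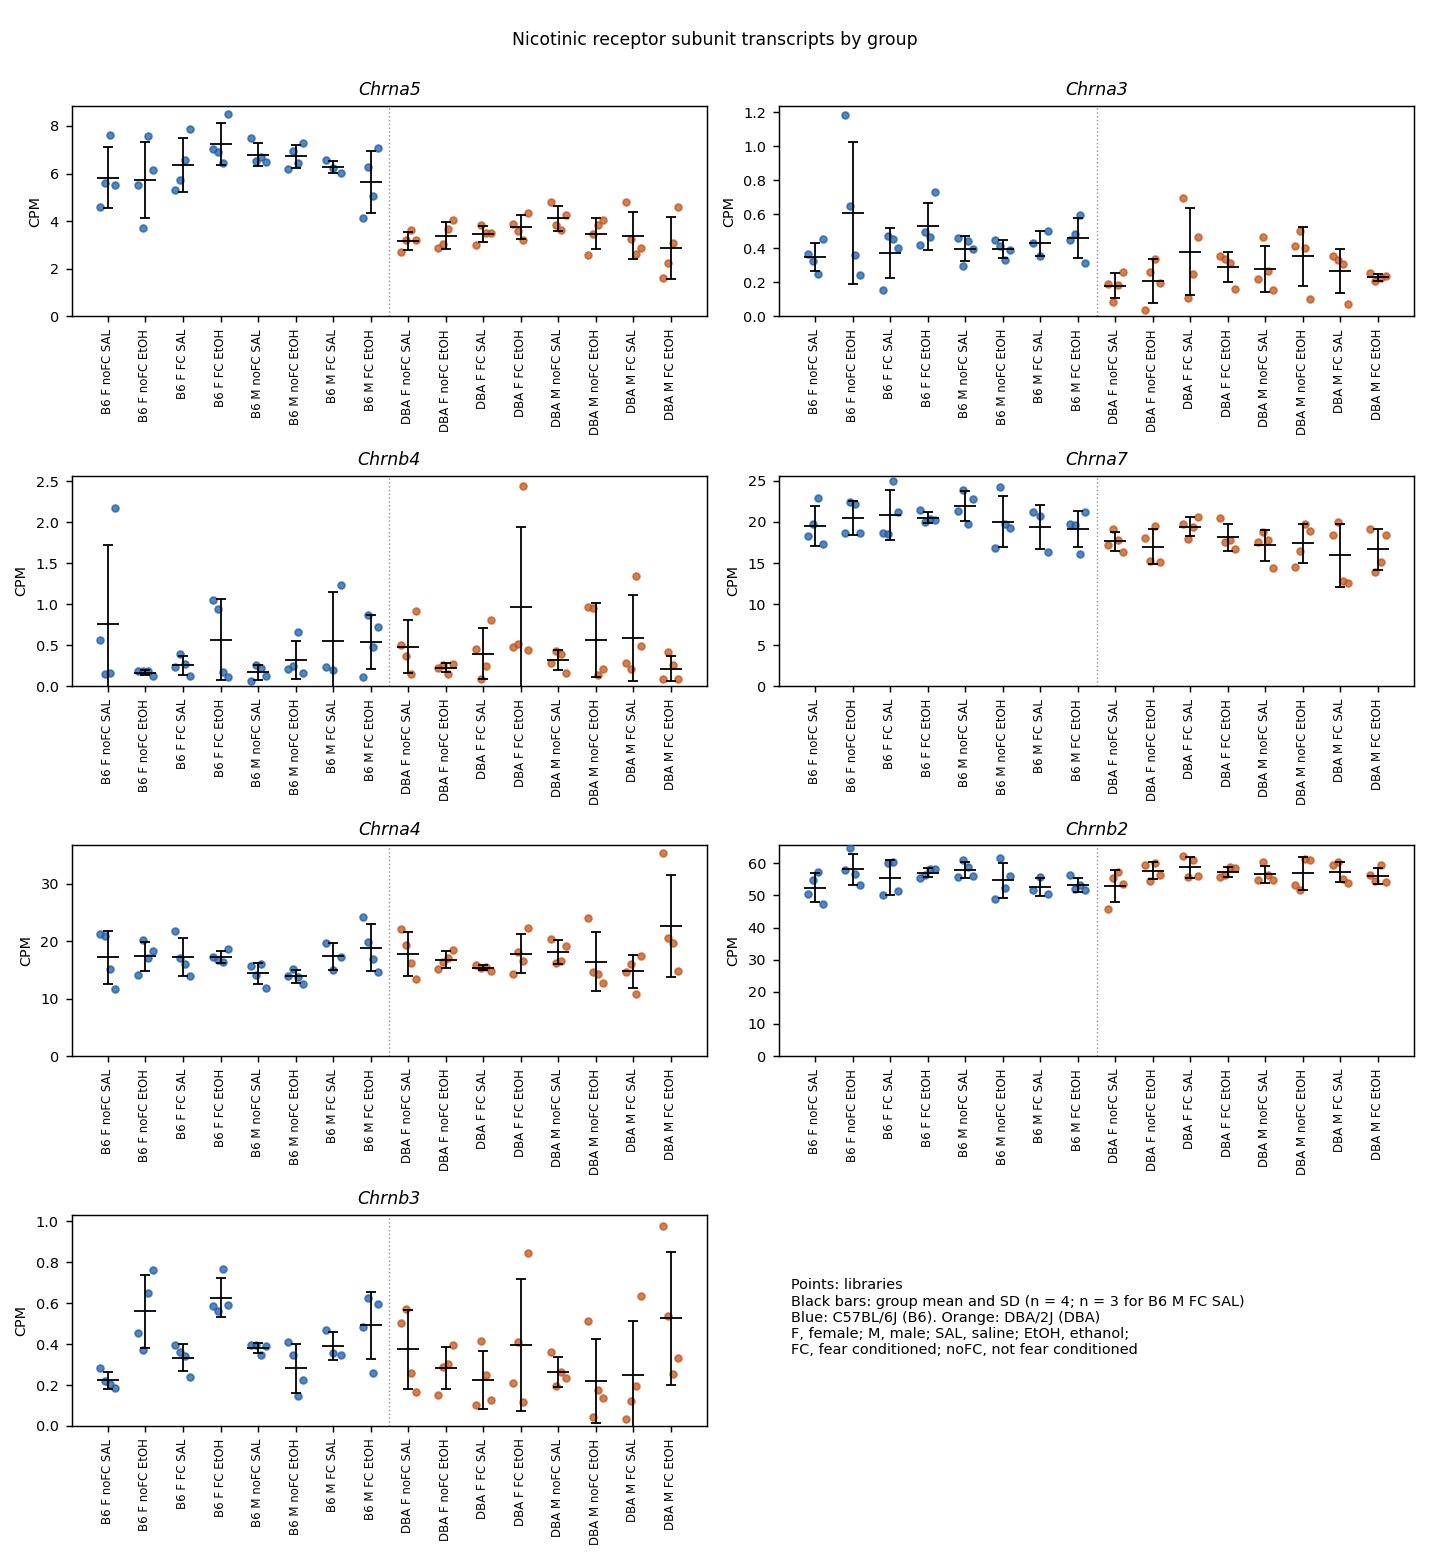
Level of each subunit in CPM (vertical axes start at 0) in the 16 groups of strain, sex, conditioning and drug; points are libraries, black bars the group mean and SD. The Chrna5 group means sit between 5.63 and 7.23 in C57BL/6J and between 2.88 and 4.12 in DBA/2J, while the Chrnb2 means of the strains lie within one SD of each other.

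The strain comparison asked which subunits differ between DBA/2J and C57BL/6J whatever the treatment. Chrna5, Chrna3 and Chrna7 were lower in DBA/2J, and Chrna4, Chrnb2, Chrnb3 and Chrnb4 did not pass the test. A gene is called changed where its p from edgeR's quasi-likelihood test, adjusted by Benjamini and Hochberg over 19974 genes, is under 0.05. So 3 of 7 members were called, where 50.0% of all tested genes were called. All 3 were lower in DBA/2J, a direction with 24.5% of all tested genes. The count of called members is therefore near the background of this pair of strains, and the result for the members lies in which subunits moved and by how much.

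Chrna5, the accessory alpha 5 subunit, had the largest difference of the 7. In C57BL/6J its lowest, median and highest library stood at 3.71, 6.44 and 8.5 CPM, and in DBA/2J at 1.61, 3.5 and 4.82 CPM. All 32 DBA/2J libraries lay below the C57BL/6J median, 21 lay below the lowest C57BL/6J library, and 28 of 31 C57BL/6J libraries lay above the highest DBA/2J library, so the ranges overlapped only at their edges. For comparison, the libraries of the strains did not overlap at all for 4.02% of tested genes, and Chrna5 was not among them. The means were 6.32 ± 1.07 (SD, n = 31) and 3.46 ± 0.724 (SD, n = 32) CPM, a log2 difference of -0.88 ± 0.07 (SE, adjusted p = 7.2e-16) or 0.545 times the C57BL/6J level (95% interval 0.493 to 0.601). In each of the 8 matched cells of sex, drug and conditioning the DBA/2J mean was lower, at 0.511 to 0.607 times that of C57BL/6J. A strain difference as low as this or lower was called for 589 genes, 2.95% of those tested. Without the low-count filter, with other scaling, with marker levels as covariates, by DESeq2, or within either round of title numbers, the log2 difference of Chrna5 was -0.9 to -0.76.

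Chrna3, which forms ganglionic and habenular receptors with beta 4, was also lower in DBA/2J but rests on few reads. The lowest, median and highest C57BL/6J libraries stood at 0.158, 0.429 and 1.18 CPM, and those of DBA/2J at 0.0376, 0.256 and 0.695 CPM, from 1 to 30 reads per library. The ranges overlapped widely, yet 28 of 32 DBA/2J libraries lay below the C57BL/6J median. The log2 difference was -0.7 ± 0.16 (SE, adjusted p = 2e-04), or 0.615 times the C57BL/6J level (95% interval 0.493 to 0.768), with a lower DBA/2J mean in 7 of 8 matched cells. The deposited transcript estimates did not show it: Chrna3 averaged 0.0592 ± 0.0829 TPM in C57BL/6J and 0.0654 ± 0.0783 in DBA/2J. Those estimates rest on a mean of 1.84 counts for Chrna3-202 and 0.607 for Chrna3-201 per library. The gene counts behind the called difference held more, with a median of 9 per library. Why the gene counts and the transcript estimates of Chrna3 differ was not tested.

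Chrnb4, the partner of Chrna3 in ganglionic receptors and its neighbour on the chromosome, did not share the difference. Its lowest, median and highest libraries were 0.0611, 0.221 and 2.18 CPM in C57BL/6J and 0.0831, 0.329 and 2.44 CPM in DBA/2J, with complete overlap. The log2 difference was 0.2 ± 0.29 (SE, adjusted p = 0.6). Its 95% interval of 0.768 to 1.71 times leaves changes in both directions undetectable at this depth and spread between libraries. With the choroid plexus marker mean as a covariate the Chrnb4 difference was -0.07 ± 0.16 (SE) and was not called. Of the genes around the cluster, Psma4, a proteasome subunit next to Chrna5, differed by -0.02 ± 0.02 (SE), and Ireb2, an iron regulatory protein, by -0.03 ± 0.03, neither called. Hykk, hydroxylysine kinase, lay beyond Psma4 and was lower in DBA/2J by -0.3 ± 0.04 (adjusted p = 1.8e-08). On the other side, Ube2q2 differed by 0.01 ± 0.02 (not called) and Fbxo22 by 0.08 ± 0.02 (adjusted p = 0.00031). The next tested gene, Nrg4, a neuregulin whose start lies 192.1 kb from that of Chrnb4, was far lower in DBA/2J at -4.36 ± 0.26 (adjusted p = 4.1e-21). Between Psma4 and Ube2q2, neither of which was called, Chrna5 and Chrna3 were called and Chrnb4 was not. Reads were assigned on a single reference, and whether sequence differences of DBA/2J move the assignment was not tested.

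**Figure D2:**
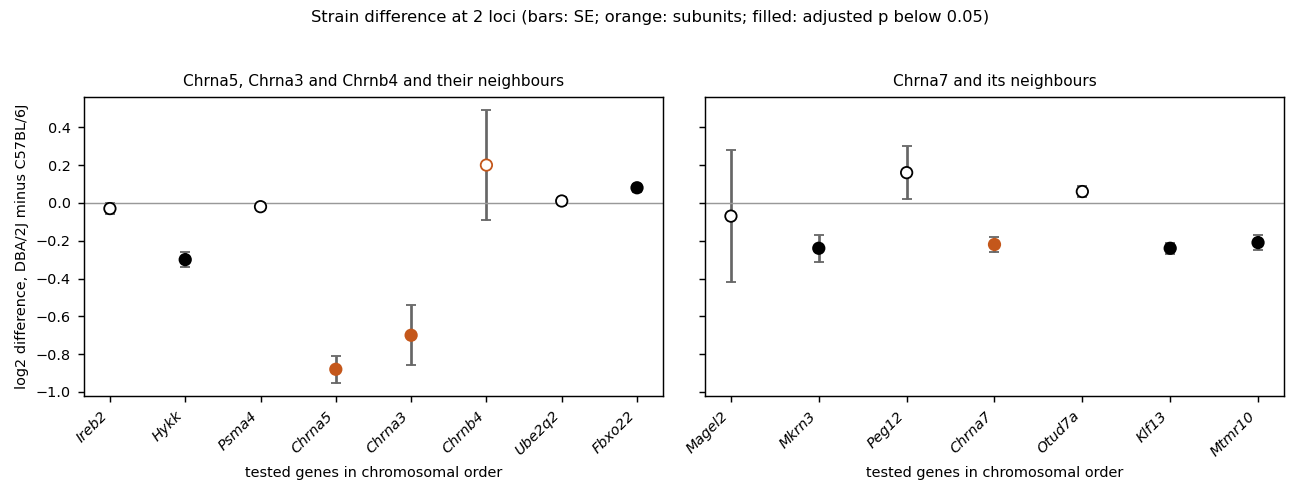
Log2 difference between DBA/2J and C57BL/6J (vertical axis, bars show SE) of the tested genes in chromosomal order around the Chrna5, Chrna3 and Chrnb4 cluster (left) and around Chrna7 (right). Orange marks the subunits and filled points an adjusted p below 0.05; Chrna5 at -0.88 and Chrna3 at -0.7 stand below Psma4 at -0.02, and Chrna7 at -0.22 is close to Klf13 at -0.24.

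Chrna7, the homomeric alpha 7 subunit, was lower in DBA/2J by a smaller step. The lowest, median and highest libraries were 16.1, 20 and 25 CPM in C57BL/6J and 12.6, 17.8 and 20.6 CPM in DBA/2J. The ranges overlapped from 16.1 to 20.6 CPM, with 30 of 32 DBA/2J libraries below the C57BL/6J median. Above the highest DBA/2J library lay 13 of 31 C57BL/6J libraries, and 8 DBA/2J libraries lay below the lowest C57BL/6J library. The log2 difference was -0.22 ± 0.04 (SE, adjusted p = 4.8e-05), or 0.861 times the C57BL/6J level (95% interval 0.809 to 0.916), and the DBA/2J mean was lower in 8 of 8 matched cells. Among its neighbours, Klf13, a transcription factor, fell by 0.24 ± 0.03 and Mtmr10, a myotubularin-related protein, by 0.21 ± 0.04, both called, while Otud7a, a deubiquitinase between them and Chrna7, differed by 0.06 ± 0.03 and was not called. The nearest tested gene on the other side, Peg12, was not called either (0.16 ± 0.14). Oligodendrocyte markers were also lower in DBA/2J (8 of 8 called, summed medians 13600 and 10300 CPM). Within strains Chrna7 correlated negatively with them, at r = -0.6 and rho = -0.6 over 31 C57BL/6J libraries (permutation adjusted p = 0.00035 and 0.00064) and at r = -0.63 and rho = -0.64 over 32 DBA/2J libraries (permutation adjusted p = 0.00027 and 0.00024). Libraries with fewer of these markers thus held more Chrna7 within a strain, while between the strains both were lower in DBA/2J. The p-values were adjusted over 8 within-strain correlations. Their pairs of member and list also correlated over all libraries, so these p-values are not independent support.

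The subunits of the common heteromeric receptor, Chrnb2 and Chrna4, were not called between the strains. Chrnb2 libraries ran from 47.2 through a median of 55.8 to 64.6 CPM in C57BL/6J and from 45.7 through 56.2 to 62.2 CPM in DBA/2J, a log2 difference of 0.04 ± 0.02 (SE, adjusted p = 0.19). Its 95% interval, 0.993 to 1.06 times the C57BL/6J level, is the narrowest of the 7, and its DBA/2J mean was 0.976 to 1.09 times that of C57BL/6J over the 8 matched cells. Adar, the overlapping gene that encodes an RNA-editing enzyme, was lower in DBA/2J by -0.16 ± 0.03 (SE, adjusted p = 4.8e-06). Chrna4 ran from 11.6 through 16.3 to 24.2 CPM in C57BL/6J and from 10.8 through 16.3 to 35.4 CPM in DBA/2J, a log2 difference of 0.06 ± 0.07 (SE, adjusted p = 0.49) with an interval of 0.948 to 1.15 times. For Chrna4 the direction changed when neocortex markers entered the model. The 5 neocortex markers Cux2, Rorb, Fezf2, Foxp2 and Tbr1 summed to 96 to 141 CPM in C57BL/6J and 109 to 214 CPM in DBA/2J, and 4 of the 5 were called higher in DBA/2J. With their mean as a covariate, an alternative added after the data were seen, Chrna4 was lower in DBA/2J by -0.24 ± 0.04 (SE, adjusted p = 1.2e-05). Whether the markers differ by dissection or by strain was not tested.

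Chrnb3, the accessory beta 3 subunit, is rare here and its strain difference was not called. Libraries stood at 0.146, 0.393 and 0.768 CPM in C57BL/6J and 0.0352, 0.257 and 0.98 CPM in DBA/2J (lowest, median, highest), with the wider range in DBA/2J. The log2 difference was -0.33 ± 0.18 (SE, adjusted p = 0.13), and leaving out single libraries moved it between -0.47 and -0.28. It passed the threshold without library DBA_M_FC_SAL_324 (-0.47), without DBA_M_noFC_EtOH_312 (-0.46) and without DBA_F_FC_EtOH_325 (-0.41), named by strain, sex, conditioning, drug and title number. With the neocortex marker mean as a covariate it was -0.9 ± 0.19 (SE, adjusted p = 6.6e-05). Of the 6 nearest tested genes, 5 were called, among them Dusp26, a phosphatase, at -0.97 ± 0.08 and Eif4ebp1, a translation repressor, at 0.8 ± 0.06, while Adrb3, the beta 3 adrenergic receptor, was not.

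**Figure D3:**
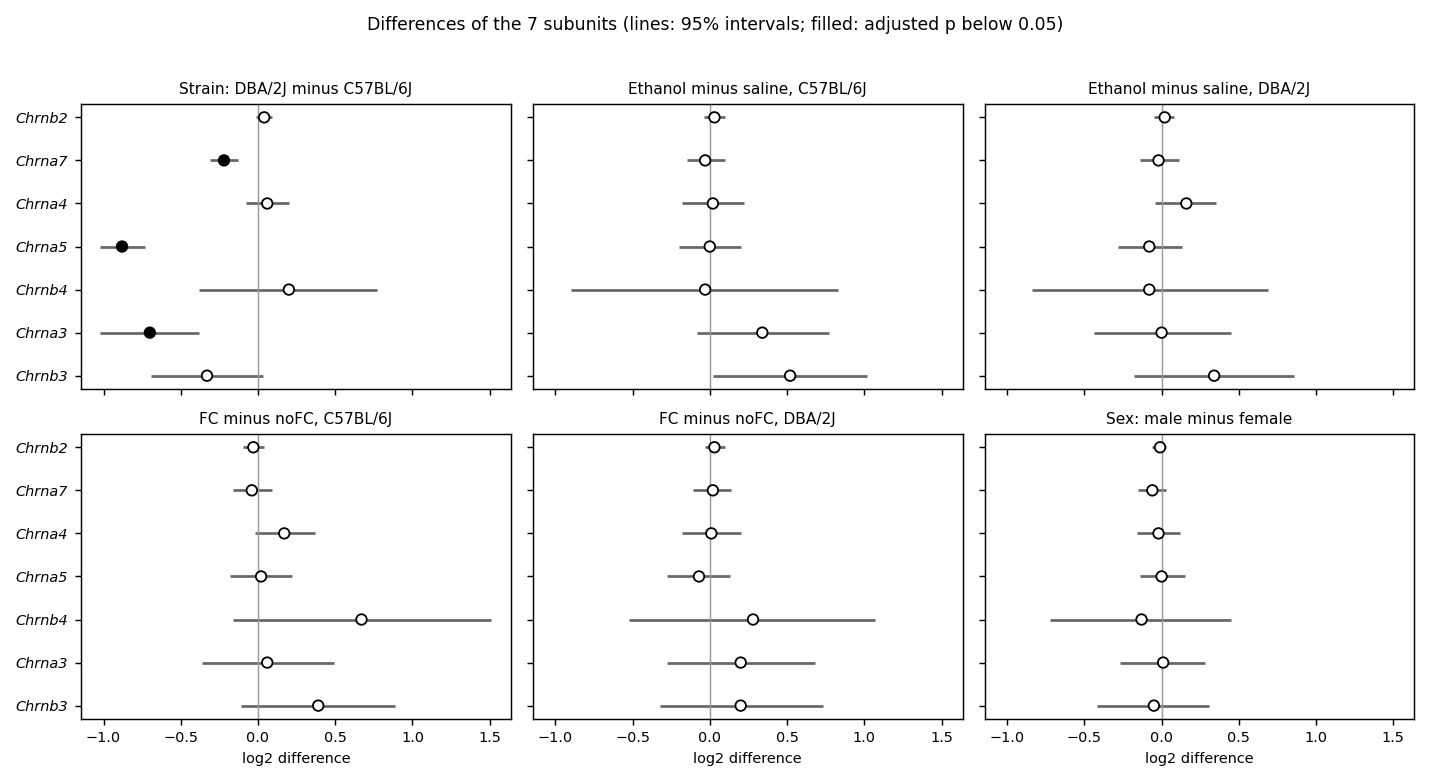
Log2 difference of each subunit (horizontal axes, lines show 95% intervals) for strain, ethanol and conditioning within each strain, and sex; filled points have an adjusted p below 0.05. Filled points occur for Chrna5, Chrna3 and Chrna7 in the strain panel and nowhere else, and the 3 rare subunits have the widest intervals.

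Transcripts of a member can differ in their share without a change of the gene, so transcript usage was tested for the members with at least 2 transcripts above the limits, Chrna5 (3 transcripts) and Chrnb2 (2 transcripts). Neither was called for strain, with limma diffSplice adjusted p of 0.64 for Chrna5 and 0.71 for Chrnb2, where 25.6% of the 9564 tested genes were called. Chrna5-204, which starts at the second, CpG-rich start, held 74.1% ± 6.96 (SD, n = 31) of the Chrna5 estimates in C57BL/6J and 77.2% ± 7.47 (SD, n = 32) in DBA/2J. Together with Chrna5-202 from the same region it made up 93.1% and 92.6%, and transcripts from the first start, shown above without GC box letters, 6.9% and 7.3%. This split is uncertain. Chrna5-201, from the first start, averaged 9.45 counts and was at 0 in 44 of 63 libraries, with shares of 6.89% ± 12.6 and 7.3% ± 11.8 (SD). Chrna5-202 was at 0 in 18 libraries. The difference between the strains was present on the main transcript: Chrna5-204 averaged 4.34 ± 0.715 and 2.52 ± 0.566 CPM of estimated counts. The gene sums of these estimates gave Chrna5 a log2 strain difference of -0.87 ± 0.07 (SE) and Chrna7 one of -0.19 ± 0.05. For Chrnb2 the coding transcript Chrnb2-201 held 88.2% ± 9.87 and 84.8% ± 13.5 of the estimates. Neither gene was called for usage after ethanol (unadjusted p = 0.75 for Chrna5 and 0.49 for Chrnb2, 1.89% of genes called) or conditioning (0.24 and 0.48, 0.565% of genes called).

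The ethanol comparison asked whether the acute dose moved the subunits. edgeR called 0 of 7 members over both strains, where 0.546% of all tested genes were called, 0 of 7 within C57BL/6J (0.0901% of genes) and 0 of 7 within DBA/2J (0.295% of genes). DESeq2 called 0 as well. At an unadjusted p under 0.05 there was 1 member, Chrnb3, over both strains and within C57BL/6J, and 0 within DBA/2J. The abundant subunits were held within narrow intervals: the ethanol level was 0.983 to 1.05 times the saline level for Chrnb2, 0.926 to 1.05 for Chrna7, 0.967 to 1.17 for Chrna4 and 0.882 to 1.07 for Chrna5 (95% intervals). For Chrnb4 the interval ran from 0.648 to 1.43 and for Chrna3 from 0.902 to 1.41, so changes of that size were not detectable.

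Chrnb3 had the largest ethanol value, and it was not called. In C57BL/6J its lowest, median and highest libraries were 0.188, 0.349 and 0.468 CPM after saline and 0.146, 0.524 and 0.768 CPM after ethanol, and in DBA/2J 0.0352, 0.241 and 0.637 CPM after saline and 0.0453, 0.294 and 0.98 CPM after ethanol. The ethanol ranges covered the saline ranges nearly whole in both strains. Over both strains the log2 difference was 0.43 ± 0.18 (SE, unadjusted p = 0.021, adjusted p = 0.46).

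The conditioning comparison asked whether fear conditioning moved the subunits, and 0 of 7 were called by edgeR over both strains, where 0.0200% of all tested genes were called. Within C57BL/6J and within DBA/2J edgeR called 0 members and 0 of all 19974 genes. No member had an unadjusted p under 0.05 in any of the 3 contrasts, and DESeq2 called 0 members. Chrnb4 had the largest value at 0.47 ± 0.29 (SE, adjusted p = 1), from a median of 0.223 CPM in noFC and 0.399 CPM in FC libraries. It was 0.3 without library B6_M_FC_SAL_322, 0.65 without B6_F_noFC_SAL_323 and 0.07 ± 0.16 with the choroid plexus marker mean as a covariate. By their choroid marker levels, 17 of the 31 FC libraries and 11 of the 32 noFC libraries were in the high range, with sums of 373 to 12600 CPM. Within strains the values parted: in C57BL/6J Chrnb4 differed by 0.67 ± 0.42 and the 12 choroid markers by a median of -0.04, and in DBA/2J Chrnb4 differed by 0.28 ± 0.4 and the markers by a median of 1.72, none of them called. The FC level was 0.969 to 1.04 times the noFC level for Chrnb2, 0.934 to 1.06 for Chrna7, 0.968 to 1.17 for Chrna4 and 0.891 to 1.08 for Chrna5 (95% intervals). The letter that ends each library title follows the drug within each round of title numbers and the conditioning state in both rounds, so whatever the letter stands for cannot be told apart from conditioning.

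Sex made no called difference, with 0 of 7 members by edgeR (0.200% of genes) and by DESeq2, and 0 at an unadjusted p under 0.05. The differences of effects were tested as interaction terms, and none was called for a member: ethanol by strain (0.0100% of genes called), conditioning by strain, ethanol by conditioning, strain by sex, ethanol by sex and conditioning by sex (0 of 19974 genes called by edgeR in each of the last 5). At an unadjusted p under 0.05 there was 1 member in ethanol by conditioning (Chrna4), 2 in conditioning by sex (Chrna5 and Chrna7) and 0 in the other 4, and DESeq2 called 0 where it gave adjusted p-values. For the strain difference of Chrna5, the male minus female difference was -0.02 ± 0.14 on the log2 scale (SE, 95% interval -0.31 to 0.26).

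The interaction with the smallest p was conditioning by sex in Chrna5. Chrna5 means were higher in FC than in noFC in 4 of 4 female cells of strain and drug and lower in 4 of 4 male cells. In C57BL/6J the female means were 5.83 CPM (noFC) and 6.36 (FC) with saline and 5.73 and 7.23 with ethanol, and the male means 6.79 and 6.27 with saline and 6.71 and 5.63 with ethanol. In DBA/2J the female means were 3.18 and 3.46 with saline and 3.39 and 3.75 with ethanol, and the male means 4.12 and 3.39 with saline and 3.47 and 2.88 with ethanol. The difference of effects, male minus female, was -0.41 ± 0.14 on the log2 scale (SE, edgeR unadjusted p = 0.0051, adjusted p = 0.12), so it was not called. In this contrast 18.4% of all tested genes had an unadjusted p under 0.05. CA1 markers moved in the same direction within each sex. Their summed medians were 576 CPM in female noFC, 604 in female FC, 591 in male noFC and 569 in male FC libraries. With the CA1 marker mean as a covariate, an alternative added after the data were seen, the Chrna5 value was -0.2 ± 0.12. DESeq2 gave the members no adjusted p here, but of the 3510 genes to which it gave one it called 444, 50 up and 394 down, where edgeR called 0.

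Ethanol by conditioning within DBA/2J had 2 members at an unadjusted p under 0.05, Chrna4 and Chrnb3, and 0 called. Chrna4 in DBA/2J averaged 17.9 ± 2.81 CPM (SD, n = 8) in noFC saline, 16.6 ± 3.53 in noFC ethanol, 15 ± 1.92 in FC saline and 20.2 ± 6.76 in FC ethanol. The difference of effects was 0.52 ± 0.19 on the log2 scale (SE, edgeR unadjusted p = 0.0091, adjusted p = 0.78). It was 0.06 ± 0.11 with the neocortex marker mean as a covariate and 0.38 ± 0.18 without library DBA_M_FC_EtOH_312. That library stood apart for several members: it had the highest Chrna4 (35.4 CPM) and Chrnb3 (0.98 CPM), the lowest Chrna5 (1.61 CPM) and the highest neocortex marker sum, 214 CPM against 166 for the next. Without it the strain differences were 0.02 for Chrna4, -0.4 for Chrnb3 and within -0.91 to -0.85 for Chrna5.

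Beyond the groups, the members varied between libraries by different amounts. The coefficient of variation within groups was 6.62% for Chrnb2, 12.2% for Chrna7, 18.4% for Chrna5 and 21.6% for Chrna4, each above the 2.56%, 4.43%, 9.01% and 4.65% that counting alone would give. It was 45.3% for Chrna3 and 48.6% for Chrnb3, where counting alone gives 33.3% and 33.1%, and 104% for Chrnb4, where counting gives 31.9%. Chrnb4 thus had the widest spread of the 7, with a 39.9-fold range between its lowest and highest library.

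The variation of Chrna4, Chrna5 and Chrnb4 went most closely with markers of different tissue parts, and each member also correlated with other lists. After removal of group means, 98 correlations of the members with 14 marker lists were computed over 63 libraries. Chrna4 correlated with the neocortex marker mean at Pearson r = 0.85 and Spearman rho = 0.8 (100000 permutations, adjusted p = 8.2e-05 for both, the smallest these permutations can give), and at r = 0.83 without the 2 most distant libraries. Within strains the Chrna4 values were r = 0.79 (rho = 0.74) over 31 C57BL/6J and r = 0.9 (rho = 0.86) over 32 DBA/2J libraries. Chrna4 also correlated with CA2 and CA3 markers (r = -0.75) and with interneuron markers (r = 0.65). Chrna5 correlated with the CA1 marker mean at r = 0.66 and rho = 0.73 (permutation adjusted p = 8.2e-05 for both) and r = 0.64 without 2 libraries. Within strains the Chrna5 values were r = 0.74 (rho = 0.81) in C57BL/6J and r = 0.61 (rho = 0.68) in DBA/2J. Chrna5 also correlated with dentate gyrus (r = 0.54), striatum (r = -0.52) and thalamus markers (r = -0.51). CA1 sums overlapped between the strains, at 481, 612 and 734 CPM in C57BL/6J and 480, 580 and 727 CPM in DBA/2J (lowest, median, highest). With the CA1 mean as a covariate, an alternative added after the data were seen, the Chrna5 strain difference was -0.86 ± 0.06. Chrna7 correlated negatively with thalamus markers (r = -0.62, rho = -0.66, permutation adjusted p = 8.2e-05 for both, r = -0.68 without 2 libraries). This was not particular to thalamus. Its r was -0.62 with oligodendrocyte, -0.59 with astrocyte and -0.53 with meningeal and fibroblast markers, and -0.51 with choroid plexus markers over both of their ranges given below. It was -0.49 with striatum and -0.48 with endothelial markers. The highest positive values were 0.44 with CA1 and 0.37 with medial habenula markers. Chrnb3 correlated with neocortex markers at r = 0.7 (rho = 0.66, permutation adjusted p = 4e-05 and 0.00018) within DBA/2J and at r = 0.3 (rho = 0.28, adjusted p = 0.11 and 0.13) within C57BL/6J. The difference between these was not tested. The within-strain p-values were adjusted over 8 correlations, whose pairs of member and list also correlated over all 63 libraries. They are therefore not independent support. In these bulk samples, fewer cells of a type and less RNA per cell cannot be told apart.

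Chrnb4 was tied to choroid plexus markers. Their summed levels were split into 2 ranges at the largest step between sorted log2 levels away from both ends. No correlation of Chrnb4 with these markers over all libraries is given here, since it would mix the 2 ranges. In the 35 libraries with a summed choroid level of 35.5 to 185 CPM, Chrnb4 stood at 0.0611, 0.207 and 0.946 CPM (lowest, median, highest). In the 28 libraries with 373 to 12600 CPM it stood at 0.112, 0.511 and 2.44 CPM. Within the high range the correlation of log2 levels was r = 0.87 and rho = 0.84 (permutation adjusted p = 2e-05 for both) and r = 0.84 without the 2 most distant libraries. Within the low range it was r = 0.28 and rho = 0.2 (permutation adjusted p = 0.11 and 0.26). The choroid ranges held both strains, 18 C57BL/6J and 17 DBA/2J libraries in the low and 13 and 15 in the high range, and Chrnb4 medians by strain were 0.193 and 0.207 CPM in the low and 0.568 and 0.502 CPM in the high range. The medial habenula, a known site of Chrnb4 and Chrna3, was checked through its markers: they summed to 56.9 to 93.6 CPM, mostly Nwd2 and Lrrc55, and the defining factor Pou4f1 had a mean of 1.78 counts per library and was at 0 in 11 libraries. After removal of group means, the habenula marker mean correlated with Chrna3 at r = -0.11 (rho = -0.16, permutation adjusted p = 0.48 and 0.29). With Chrnb4 it was r = -0.38 (rho = -0.31, permutation adjusted p = 0.0076 and 0.033).

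**Figure D4:**
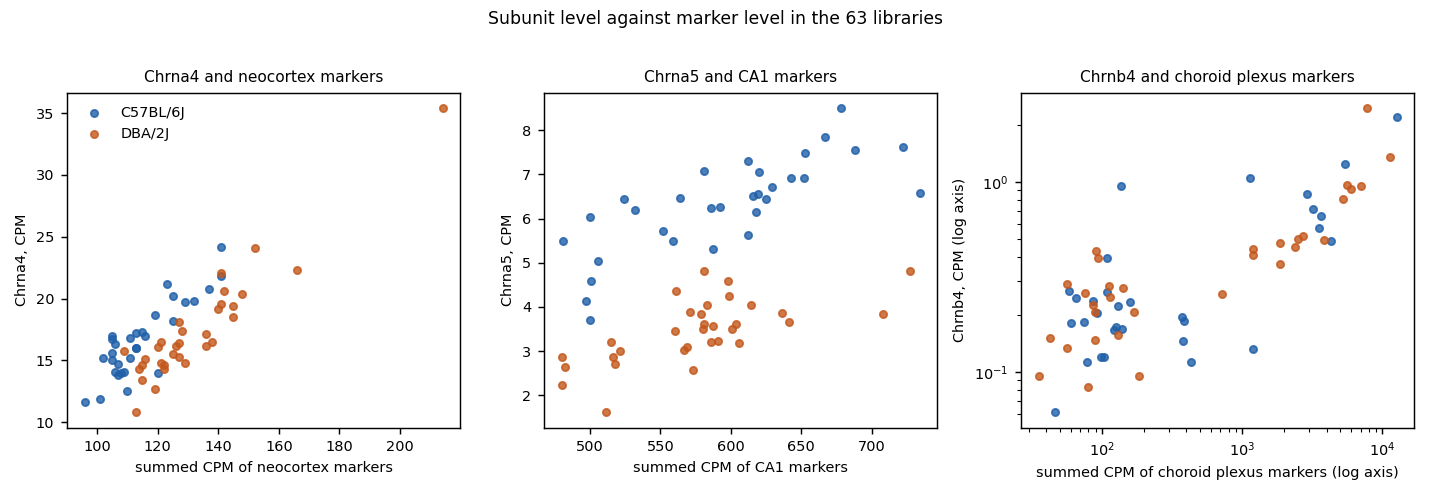
Level of Chrna4, Chrna5 and Chrnb4 in CPM (vertical axes) against the summed CPM of neocortex, CA1 and choroid plexus markers (horizontal axes, both axes logarithmic for Chrnb4); points are libraries, blue C57BL/6J and orange DBA/2J. Chrna5 rises with CA1 markers in both strains at separate levels, and the point at 214 CPM of neocortex markers holds the highest Chrna4, 35.4 CPM.

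The genes whose pattern over the 63 libraries was most like that of each member, by Pearson r of log2 levels after removal of group means, differed between members. They were picked as the highest of all tested genes, so the values are descriptions without a test. Chrna4 was closest to Olfm2 (r = 0.92), a secreted olfactomedin, followed by Zdhhc22, Lgi2, Plxdc1 and Cit. Chrna5 was closest to Lmo3 (r = 0.89), a LIM-domain cofactor, followed by Kcnab1, Arl15, Atp2b1 and Plk2. Chrna7 was closest to Napb (r = 0.8), which takes part in vesicle fusion, followed among others by Tcf20, Sv2b and Lancl1, and Chrnb2 to Galnt16 (r = 0.86), Fbxo21, Ddx24, Cdip1 and Abcg4. Chrnb4 was closest to Pon3, C1qtnf5, Rdh5 and Mfrp (r = 0.87 each) and Slc2a12 (r = 0.86). These values rest on the libraries rich in choroid markers: for Mfrp r was 0.88 within the high and 0.28 within the low range. Chrnb3 reached r = 0.67 with Camk2n1, an inhibitor of CaM kinase II, ahead of Ier5, Tshz3, Cplx3 and Epb41. Chrna3, with the fewest reads, reached no more than r = 0.49 (Phykpl and Pcbd2, then Txnrd3, Tmem129 and Tmem53).

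Among the genes that act with the receptors, modulators were called between the strains in both directions. Of 13 chaperones and modulators, 11 were tested and 8 were called, 4 of them higher in DBA/2J and 4 lower, where 50.0% of all tested genes were called, 25.5% higher and 24.5% lower. The list's median log2 difference was 0.03 against 0.005 over all tested genes. Lynx1, a membrane-anchored brake on nicotinic receptors, was higher in DBA/2J by 0.19 ± 0.03 (SE, 388 ± 33.1 against 443 ± 30.5 CPM, adjusted p = 1e-07). Its relative Lypd1 was higher by 0.21 ± 0.03 (94 and 109 CPM, adjusted p = 5e-09). Lypd6, another relative, fell by 0.14 ± 0.04 and Ly6g6e, which is rare, by 0.95 ± 0.14 (1.62 and 0.833 CPM). Of the 9 other nicotinic subunits, 5 were tested and 1 was called, the muscle subunit Chrna1 at -0.26 ± 0.07 (1.56 and 1.29 CPM). Chrnd and Chrng had counts of 0 in 60 and 61 of 63 libraries.

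Of 8 genes for making, moving and breaking down acetylcholine, all were tested, 1 was higher and 3 were lower in DBA/2J, and the median difference was -0.27. These 4 of 8 are at the background of 50.0%. Ache, acetylcholinesterase, was higher by 0.32 ± 0.03 (53.6 ± 5.51 and 66.9 ± 4.98 CPM, adjusted p = 9.9e-14). Bche, butyrylcholinesterase, fell by 0.52 ± 0.07 (8.54 and 5.99 CPM), the choline transporter Slc5a7 by 0.57 ± 0.17 (1.46 and 0.993 CPM) and Slc44a1 by 0.09 ± 0.04. Chat, the synthesising enzyme of cholinergic neurons, had a median of 0.0376 CPM and was at 0 in 20 of 63 libraries. Of 5 muscarinic receptors 1 was called, below that background: Chrm4, higher by 0.44 ± 0.05 (7.94 ± 1.5 and 10.7 ± 1.39 CPM, adjusted p = 4.4e-10). In the ethanol and conditioning contrasts over both strains edgeR called 0 of the 29 tested genes of these 4 lists. At an unadjusted p under 0.05 there was 1 for ethanol, Bche at 0.14 (adjusted p = 0.57), and 0 for conditioning.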

How the data were processed

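Dorsal hippocampus RNA of 63 libraries was made into stranded mRNA libraries and sequenced as single reads of 75 nt, per the labels' protocols. The tools fastp, HISAT2, featureCounts, Salmon and DESeq2 and the build GRCm38 are named in the submitters' processing notes, without versions. The deposited gene table holds whole-number counts per gene, and the deposited transcript table holds estimated counts (46.8% of its values not whole), which were rounded before testing; the strand setting of the counting is not given in the sources used here. Identifiers were matched to GENCODE M21.

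Genes were kept by filterByExpr with a minimum count of 10 (19974 genes, 99.95% of counts), scaled by TMM (factors 0.96 to 1.05) and fitted over all 16 groups with the quasi-likelihood test of edgeR 4.0.16 (R 4.3.3). Strain, sex, drug and conditioning effects were averages over groups, with p-values adjusted by Benjamini and Hochberg over all tested genes. Transcript usage was tested with voom and diffSplice (limma 3.58.1). CPM and RPKM use the TMM-scaled totals, and log2 CPM used for correlations a prior count of 2. Correlations used 100000 permutations. The gene and transcript tests were also tried on simulated data, with spreads that were set and not estimated from these libraries. The gene test recovered 87 of 100 changes of 1.5-fold and 93 of 100 of 2-fold, with 8 false calls among 188. The transcript test recovered 197 of 200, with 14 false calls among 211.

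The members and lists were chosen with earlier results of these data known. Genes named besides the members were taken from up to 4 called genes of each other cholinergic list with the smallest p for strain, list genes at or near 0, the 3 nearest tested coding genes on each side of a member, the 5 genes of most similar pattern and defining markers. Not every gene that this rule allows is named, and 1 is not reported here. Alternatives were DESeq2 1.42.0, other scalings, no filter, transcript sums, title rounds, marker covariates, each library left out and the title number as a block. Of the marker covariates, neocortex and CA1 were added after the data were seen. The highest correlation between any 2 libraries was 0.9942, and no library was taken as a duplicate.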

Additional observations from a re-analysis of the deposited data

Results flagged for a closer look

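In groups of 4 libraries, 9 of 105 pairs of a member and a group held a library far from the other 3 by Dixon's ratio of log2 CPM; chance gives about 1 in 20, and the group of 3 was not tested. For Chrna3, the low libraries were B6_F_FC_SAL_311 (0.158 CPM, the others 0.399 to 0.471), DBA_F_FC_EtOH_325 (0.161, the others 0.315 to 0.356), DBA_M_FC_SAL_324 (0.0708, the others 0.309 to 0.352) and DBA_M_noFC_EtOH_324 (0.104, the others 0.401 to 0.499). For Chrna7 it was B6_F_FC_EtOH_311, at 21.5 CPM against 20 to 20.3. For Chrnb3, B6_F_FC_EtOH_319 was high (0.768 CPM, the others 0.564 to 0.591) and B6_M_noFC_SAL_318 was low (0.347, the others 0.393 to 0.397). For Chrnb4, B6_F_noFC_EtOH_323 was low (0.12 CPM, the others 0.181 to 0.185) and DBA_F_FC_EtOH_321 was high (2.44 CPM, the others 0.443 to 0.52). Of these 9, 8 concern the 3 rare subunits.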

How the results depend on the processing

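With the neocortex marker mean as a covariate, added after the data were seen, the strain difference of Chrna4 changed direction to -0.24 and that of Chrnb3 passed the threshold at -0.9, so that 5 of the 7 members were called in place of 3; the cause was not tested. Leaving out single libraries moved the strain difference of Chrnb3 between -0.47 and -0.28, with 3 libraries without which it passed. Chrna5, Chrna3 and Chrna7 kept their direction and their call with each library left out and in every other alternative that gave a value, the latter at -0.9 to -0.76, -0.77 to -0.55 and -0.25 to -0.18; the gene sums of transcript counts gave none for Chrna3, which fell below the filter there. By TPM, Chrnb3 ranked 6 and Chrna3 ranked 7 per length. The title number was tried as a replicate block for the ethanol and conditioning contrasts only, since it is nested in strain and sex: 0 of 7 members were called, with Chrnb3 at 0.38 for ethanol (adjusted p = 0.47) and Chrna5 at -0.43 for conditioning by sex (adjusted p = 0.091). Same-numbered libraries correlated at -0.52 to 0.48 after removal of group means, with a mean of 0.04 against -0.09 for other numbers. Of 93 same-numbered pairs, 32 exceeded 0.1. The number was not taken to pair libraries in the main fit, a choice that these values do not settle. Depth limits Chrna3, Chrnb3 and Chrnb4, with median counts of 9, 9 and 7. Spread limits Chrnb4 as well, at 104% within groups where counting alone gives 31.9%. Over all genes, DESeq2 and edgeR called 444 and 0 for conditioning by sex, 107 and 59 for ethanol in DBA/2J, and 2 and 0 for conditioning in C57BL/6J; the cause was not tested.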
